A study of Mus musculus with 12 samples.

Results

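The genes described here encode the proteins of the cytosolic ribosome. They were chosen by symbol: Rps or Rpl followed by a number and at most a letter suffix, together with Rpsa, Rplp0, Rplp1 and Rplp2, leaving out the S6 kinases and the symbols marked as pseudogenes. The rule found 89 of the 45281 probes, for 60 of the 19057 named genes: 34 probes of 24 small subunit genes and 55 probes of 36 large subunit genes. RefSeq lists 59 of the 60 as protein coding and 1, Rps4l, as a transcribed pseudogene, which the symbol rule keeps. Rps3a1, Rpl7l1 and Rpl22l1 fall outside the rule because their symbols end in a digit, and are not counted among the 60.

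Total RNA came from kidneys of male C57BL/6J mice, an inbred strain, at postnatal day 28, and each of the 12 samples was read on 1 Illumina bead array. For 6 samples the mother's drink held 10% ethanol by volume, taken ad libitum; exposure began at fertilization and was over by gestation day 8.5. The other 6 were controls, for which the labels name no treatment of their own, and both groups share strain, sex, age and tissue. The labels name neither litter nor animal, so each p-value reflects the spread among these 12 arrays alone, and that spread may be technical.

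Levels below are log2 normalised intensities. A probe's brightness depends on its sequence as well as on its transcript, so levels are compared between arrays for 1 probe and not between probes. Between 50.4% and 56.9% of all probes lay above background on an array, and 23984 probes were tested. The kidney markers on the array were above background on all 12 arrays (11 of 11 genes, among them Slc34a1, Umod and Aqp2). Some arrays stand apart: control 4 (array weight 0.27) and ethanol 6 (0.52) had the lowest quality weights, against 0.82 or more for the others, and ethanol 2 and ethanol 3 lay at one end of the first principal component (45.7 and 37.5) with control 4 at the other (-62.5).

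Each ribosome carries a single copy of nearly every one of these proteins, so cells make them in matched amounts. Their messenger RNAs are among the most abundant in any tissue, and growth signals through the mTOR kinase control them mainly at translation, through a run of pyrimidines at the 5′ end of the message called the TOP motif. The small subunit reads the message, and the large subunit joins the amino acids.

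Runs of pyrimidines stood near the start of some of these genes, a feature that the choice by symbol did not use. The windows counted also take in bases before the start, so a run in them need not lie in the message. RefSeq start windows were found for 49 of the 60 genes (59 windows, since 9 genes have several; the table gives 250 bases before each start and 50 after). The strand that has the sequence of the message is called the sense strand here. Within 15 bases on either side of the start, an unbroken run of at least 8 C or T bases stood on the sense strand in 35.6% of the 59 windows. The share was 12% of all 32851 windows and 12% of the 21263 windows of protein-coding genes. On the opposite strand the share was 1.69% of these windows, against 13.2% of all. The letters CTTTC can lie inside such a run. They stood on the sense strand in 20.3% (4.05% of all windows) and on the other strand in 1.69% (3.6% of all). Over the 300 bases on either strand, CGGAAG, a sequence that ETS factors bind, was present in 64.4% (16.9% of all, 21.1% of coding windows). GGGCGG was present in 59.3% (35.7% and 46.2%), ATGGCG in 23.7% (8.93% and 10.9%) and TATAAA, the TATA box, in 8.47% (13.6% and 12.6%).

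Start windows are shown for the genes, where they have one, of the 6 lower and 6 higher probes with the smallest p described below, and for Rpl38, whose bright probe varied least. Each is 30 bases of the sense strand, 5′ to 3′, from RefSeq on build GRCm38.p6, with 15 bases before the start and 15 from it. Capitals mark the longest run of C and T. For Rps24, which has 2 windows, the one with the longer run is given.
Rps9, chr7:3704026-3704055, plus strand: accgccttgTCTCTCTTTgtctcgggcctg
Rps6, chr4:86857353-86857382, minus strand: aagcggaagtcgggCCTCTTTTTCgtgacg
Rps2, chr17:24720048-24720077, plus strand: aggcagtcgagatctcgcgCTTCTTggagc
Rps3, chr7:99483695-99483724, minus strand: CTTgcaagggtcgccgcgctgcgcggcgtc
Rps24, chr14:24490663-24490692, plus strand: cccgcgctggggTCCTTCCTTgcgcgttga
Rps13, chr7:116334176-116334205, minus strand: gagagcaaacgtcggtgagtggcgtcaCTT
Rps15a, chr7:118116133-118116162, minus strand: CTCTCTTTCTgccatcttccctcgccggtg
Rps23, chr13:90923107-90923136, plus strand: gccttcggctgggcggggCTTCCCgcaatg
Rpl23, chr11:97782425-97782454, minus strand: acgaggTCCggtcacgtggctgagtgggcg
Rpl38, chr11:114668565-114668594, plus strand: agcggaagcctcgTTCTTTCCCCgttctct
The runs in Rps6 and Rps15a were 10 bases long, as in Rpl38, and those in Rps9 and Rps24 were 9. That of Rps15a lay wholly before the start. Rps3, Rps13 and Rpl23 had no run above 3 in these windows. Long runs were therefore found on both sides of the comparison below. Genes with a run of at least 8 (20 genes, 31 tested probes) had a median log2 difference of -0.03, and genes without one (27 genes, 37 tested probes) had -0.08, with 3 probes of each at an unadjusted p under 0.05 on the lower side.

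The first question was whether ribosomal protein genes differ between ethanol and control kidneys. No member passed the test across all probes: 0 of 81 tested members and 0 of 23984 probes (0%) had an adjusted p under 0.05 in limma, and the smallest adjusted p of a member was 0.379. The tested members lay slightly below 0, with a median ethanol minus control log2 difference of -0.04 (quartiles -0.19 and 0.04, range -0.60 to 0.58), against 0.01 over all tested probes. Of the 81, 48 lay below 0 (59.3%), where 48.2% of all probes did. At an unadjusted p under 0.05, 8 members were on the lower side (9.88%) against a background of 6.81%, and 1 was on the higher side (1.23%) against 5.35%. With 1 probe a gene, 4 of 56 were on the lower side (7.14%) and 0 on the higher. No member separated the groups without overlap in either direction, where 0.204% of all probes did so on the lower side and 0.279% on the higher. The count on the lower side changed with the arrays used, as did the share of all probes. Without ethanol 2 and ethanol 3 it was 0 members (2.39% of all probes), and without control 3 and ethanol 2 it was 1 (3.32%). With a single array left out, it was 3 without control 3 (5.4% of all probes), ethanol 2 (3.86%) or ethanol 3 (4.11%), and 4 without control 1 (5.04%). It was 13 without ethanol 1 (7.74%). The count on the higher side was 0 without control 1, control 4, control 6, ethanol 2, ethanol 3, ethanol 4 or ethanol 5, each left out singly, and 3 without ethanol 1.

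The 81 tested probes cover 56 genes, and all passed the filter on dim probes, so they are not the whole set. Of the 8 probes that did not pass, those of Rpl17, Rpl6, Rplp2, Rps24 and Rpsa were above background on 0 of 12 arrays. Rpl37 and Rps20 had such probes on 2 and 3 arrays, and Rpl39l on 1. For Rplp2, Rps24, Rpl37 and Rpsa, another probe of the same gene was tested. Rpl17, Rpl6, Rpl39l and Rps20 had no tested probe.

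Small subunit probes lay further below 0 than large subunit probes, as a description with no test. The 31 small subunit probes had a median of -0.12, with 21 below 0 (67.7%), 6 on the lower side at an unadjusted p under 0.05 (19.4%, against 6.81% of all probes) and 1 on the higher (3.23%, against 5.35%). That median was -0.07 without ethanol 2, ethanol 4, ethanol 6 or control 5, each left out singly, -0.08 without control 4, -0.06 with array weights and -0.05 with no filter. The 6 probes on the lower side were those of Rps4l and Rps6, both Rps9 probes, and the dimmer probes of Rps2 and Rps3, so they are not 6 genes. Without the pseudogene Rps4l, 7 of 80 members of both subunits were on the lower side (8.75%). The 50 large subunit probes had a median of -0.04, with 27 below 0 (54%), 2 on the lower side (4%) and 0 on the higher. Its sign was not stable: it was 0.00015 without ethanol 6, 0.016 without control 4 and ethanol 6, and 0.0088 with array weights, and it was -0.014 without control 3. Averaged by array, the small subunit probes deviated from their own means by between -0.06 (control 6) and 0.23 (control 3) in controls, and between -0.26 (ethanol 2) and 0.02 (ethanol 5) in ethanol samples. The large subunit probes ran from -0.03 (control 4) to 0.17 (control 3) in controls and from -0.10 (ethanol 6) to 0.07 (ethanol 1) in ethanol samples. Both subunits were highest in control 3, and the groups overlapped for both.

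**Figure D1:**
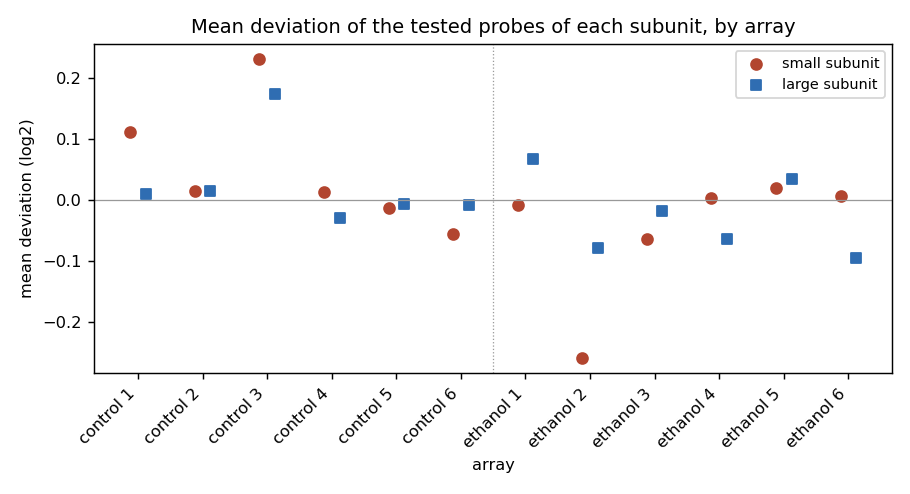
Mean deviation (log2) of the tested small subunit probes (circles, 31 probes) and large subunit probes (squares, 50 probes) on each of the 12 arrays, each probe measured from its own mean over the arrays. Control 3 is highest for both subunits (0.23 and 0.17), and ethanol 2 is lowest for the small subunit (-0.26).

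2 arrays held many of the extremes. Control 3 was the highest of the 12 arrays for 36 of 81 members (44.4%), where it was highest for 7.16% of all tested probes. Ethanol 2 was the lowest for 29 of 81 (35.8%), where it was lowest for 13.5% of all. Of the 31 small subunit probes, 15 were highest in control 3 and 15 were lowest in ethanol 2. Control 5 and ethanol 4 were highest for no member, and ethanol 5 was lowest for none. The members' mean deviation was 0.03 ± 0.08 in controls and -0.03 ± 0.07 in ethanol samples (SD, n = 6 each).

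The difference depended on where in the intensity range a probe lay, in ranges drawn after the values were seen. For the 30 members at levels from 11 to 14, the median difference was -0.18 and 24 lay below 0. All 2613 tested probes in that range had a median of 0.01, and 45.4% lay below 0. Of those 30, the 16 small subunit probes had a median of -0.24 with 15 below 0, and the 14 large subunit probes had -0.13 with 9 below 0. The exception among the small subunit probes was Rps26 at 0.01, whose sign changed between settings. At levels of 14 and over, 20 members had a median near 0 (10 below 0), where all tested probes had 0.02 and 38.3% lay below 0. The members' spread was small there, with a median SD over the 12 arrays of 0.10 against 0.22 at 11 to 14. The median SD of all tested probes was also smaller, at 0.12 against 0.18. At levels from 8 to 11, 11 members had a median of -0.05 (6 below 0), where all tested probes had 0.01 (48.1% below 0). Under 8, 20 members had 0.04 (8 below 0), where all tested probes had 0.01 (48.9% below 0).

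By array, the 30 probes at levels 11 to 14 deviated by between -0.04 and 0.32 in controls and between -0.36 and 0.08 in ethanol samples. Ethanol 2 (-0.36) and ethanol 3 (-0.17) were lowest, control 3 (0.32) and control 1 (0.17) were highest, and the other 8 arrays lay between -0.07 and 0.08. The median of this range stayed below 0 in every setting run: -0.13 without control 3, -0.12 without ethanol 2, -0.09 without ethanol 2 and ethanol 3, and -0.08 without control 3 and ethanol 2.

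**Figure D2:**
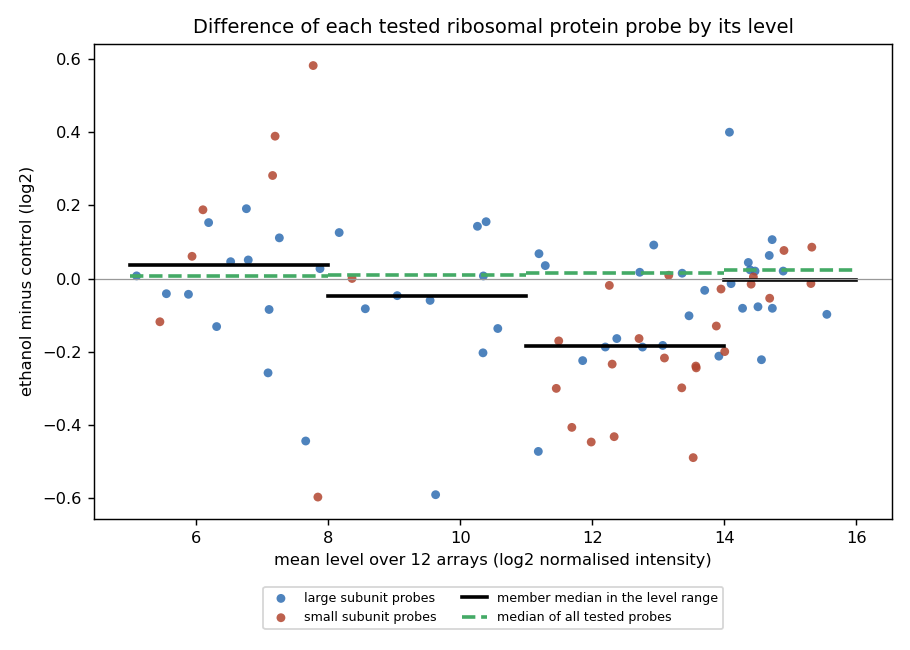
Each point is a tested ribosomal protein probe, with its mean level over 12 arrays (log2 normalised intensity) across and its ethanol minus control difference (log2) upward. Black lines give the members' median in each level range and dashed green lines that of all tested probes: at 11 to 14 these are -0.18 and 0.01.

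The 6 lower probes with the smallest p included 5 of the small subunit. Rps4l, a relative of the X-linked small subunit gene Rps4x, ran from 7.84 to 8.41 in controls (median 8.13) and from 6.87 to 8.18 in ethanol samples (median 7.63). Its log2 difference was -0.60 ± 0.19 (SE, n = 6 each; adjusted p = 0.379 in limma; unadjusted exact permutation p = 0.0173, two-sided). Ethanol 4 lay among the controls, and the other 5 ethanol samples lay below every control. The probe of Rps4x itself was steadier, at 13.80 to 14.07 in controls (median 13.95) and 13.55 to 13.98 in ethanol samples (median 13.85). Its difference was -0.13 ± 0.10 (SE), and the groups overlapped.

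Rps6, the small subunit protein that the S6 kinases phosphorylate when mTOR is active, ran from 11.68 to 12.14 in controls (median 11.84) and from 10.92 to 11.84 in ethanol samples (median 11.61). Its log2 difference was -0.41 ± 0.17 (SE; adjusted p = 0.382 in limma). Ethanol 2 (10.92) and ethanol 3 (11.15) were far below the rest, and ethanol 4 (11.84), ethanol 1 (11.79) and ethanol 6 (11.74) lay within the range of the controls.

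Rps3, which sits where the message enters the ribosome, ran from 12.28 to 12.79 in controls (median 12.50) and from 11.41 to 12.52 in ethanol samples (median 12.22) by the lower of its 2 probes. That probe differed by -0.43 ± 0.18 (SE; adjusted p = 0.384 in limma), and the other by -0.24 ± 0.12. Rps9, another small subunit protein, ran from 11.95 to 12.51 in controls (median 12.18) and from 11.06 to 12.13 in ethanol samples (median 11.84). Its 2 probes gave -0.45 ± 0.17 and -0.30 ± 0.13 (adjusted p = 0.379 and 0.404 in limma). In both genes the 2 probes followed each other closely over the 12 arrays (r = 0.92 for Rps3 and 0.97 for Rps9), with ethanol 2 lowest.

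Rps2, a small subunit protein near the message entry site, had 1 probe on the lower side, at 13.32 to 13.98 in controls (median 13.87) and 12.54 to 13.73 in ethanol samples (median 13.35). It differed by -0.49 ± 0.19 (SE; adjusted p = 0.379 in limma). Its brighter probe gave -0.01 ± 0.09, at 15.24 to 15.43 in controls (median 15.32) and 15.19 to 15.46 in ethanol samples (median 15.29). The 2 probes of this gene gave different values, with r = 0.49 between them over 12 arrays.

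Rpl29, a large subunit protein, showed the same split. Its dimmer probe ran from 9.29 to 10.20 in controls (median 10.06) and from 8.53 to 9.80 in ethanol samples (median 9.48), a difference of -0.59 ± 0.23 (SE; adjusted p = 0.379 in limma). Its brighter probe ran from 13.29 to 13.46 in controls (median 13.35) and from 13.24 to 13.47 in ethanol samples (median 13.37), a difference of 0.01 ± 0.09. The 2 probes ran against each other over the arrays (r = -0.43). Rpl27, the other large subunit gene at an unadjusted p under 0.05, ran from 10.88 to 11.78 in controls (median 11.56) and from 10.31 to 11.40 in ethanol samples (median 11.07), a difference of -0.47 ± 0.20.

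The 6 lower probes moved together from array to array. After each group's mean was removed, the 15 pairwise correlations among them ran from 0.76 to 0.97 over 12 arrays that share all of the processing. Over all 3240 pairs of tested members the median of this correlation was 0.14. The 6 probes were chosen by their p on these same arrays. In all 6, ethanol 2 was lowest and ethanol 3 next, and ethanol 4 was the highest ethanol sample. Control 2 was the lowest control in all but Rps4l. These 6 differences kept their sign in all 25 alternative settings but shrank without ethanol 2 and ethanol 3. They were then -0.34 (Rps4l), -0.29 (Rpl29), -0.23 (Rps9), -0.24 (Rps2), -0.18 (Rps6) and -0.19 (Rps3). The smallest adjusted p among them in any setting was 0.117 (Rpl29, limma).

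**Figure D3:**
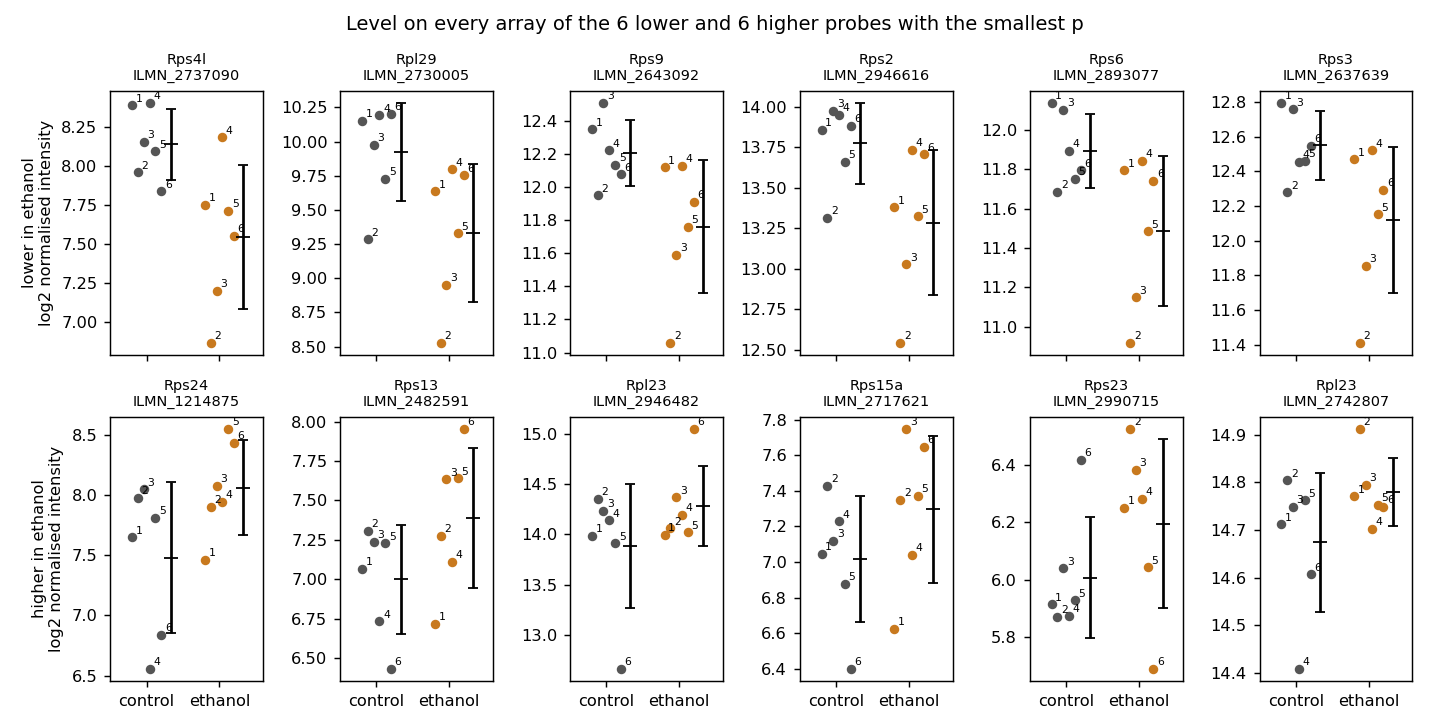
Log2 normalised intensity on every array (points, numbered by replicate) of the 6 lower probes (upper row) and 6 higher probes (lower row) with the smallest p, with mean ± SD beside each group (n = 6). In the upper row ethanol 2 and ethanol 3 are the lowest points of each panel, and every panel shows overlap between groups.

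On the higher side the 6 probes with the smallest p lay lower in the intensity range, apart from those of Rpl23. A dim probe of Rps24, a small subunit gene whose transcripts are spliced in several forms, ran from 6.56 to 8.05 in controls (median 7.73) and from 7.46 to 8.55 in ethanol samples (median 8.01). Its difference was 0.58 ± 0.26 (SE; adjusted p = 0.406 in limma; unadjusted exact permutation p = 0.0974). Controls 4 (6.56) and 6 (6.84) were far below the rest, and the remaining controls lay within the ethanol range. The brighter probes of Rps24 gave 0.08 ± 0.11, and 0.00 ± 0.14 with its sign changing between settings.

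Rps13 and Rps15a, both of the small subunit, had dim probes of the same kind. Rps13 ran from 6.43 to 7.31 in controls (median 7.15) and from 6.72 to 7.95 in ethanol samples (median 7.45), a difference of 0.39 ± 0.21 (SE). The brighter Rps13 probe pointed the other way, at -0.16 ± 0.13 (-0.10 without control 3 or without ethanol 2), with r = -0.36 between the 2. Rps15a ran from 6.40 to 7.43 in controls (median 7.08) and from 6.62 to 7.75 in ethanol samples (median 7.36), a difference of 0.28 ± 0.20, which was 0.16 without control 6. The dim probes of Rps24, Rps13 and Rps15a followed each other within groups (r from 0.51 to 0.85, against a median of 0.14 over all pairs of tested members). Ethanol 1 was lowest of its group in each of them. Rps23, part of the decoding site, ran from 5.87 to 6.42 in controls (median 5.92) and from 5.69 to 6.53 in ethanol samples (median 6.27), a difference of 0.19 ± 0.15, which was 0.12 without ethanol 2 and 0.29 without ethanol 6.

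Rpl23, a large subunit protein that also binds Mdm2, had 4 tested probes with unlike patterns over the arrays. The brightest ran from 14.41 to 14.80 in controls (median 14.73) and from 14.70 to 14.91 in ethanol samples (median 14.76), a difference of 0.11 ± 0.10. The next ran from 12.66 to 14.35 in controls (median 14.06) and from 13.99 to 15.05 in ethanol samples (median 14.13), a difference of 0.40 ± 0.26, which was 0.16 without control 6 and 0.25 without ethanol 6. For that probe control 6 was the lowest and ethanol 6 the highest of all 12 arrays, and the other 10 lay between 13.91 and 14.37. The third gave 0.01 ± 0.21, with control 4 at 9.29 and ethanol 6 at 9.88, both below the other arrays, and its sign changed between settings. The dimmest gave 0.11 ± 0.18. Correlations between the 4 probes over 12 arrays ran from -0.22 to 0.73.

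Probes of one gene disagreed often, here as across the array. Several probes were tested for 18 member genes, and in 7 of them (38.9%) the signs were mixed, against 46.9% of the 5009 such genes on the array. The 34 probe pairs had a median correlation of 0.32 over the 12 arrays. In 12 of the 18 genes the difference was smaller in size for the brightest probe than for the dimmest. That count was not taken over all genes, so it has no share to be read against. The median SD of all tested probes also fell with level, from 0.31 under 8 to 0.12 at 14 and over. The 5 widest gaps were those of Rpl29 (0.60), Rps24 (0.58), Rps13 (0.55), Rps2 (0.48) and Rpl23 (0.39), and the narrowest was that of the stalk protein gene Rplp0 (0.04). The closest pairs included those of Rps9, Rps3 and Rps12 (r = 0.82).

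**Figure D4:**
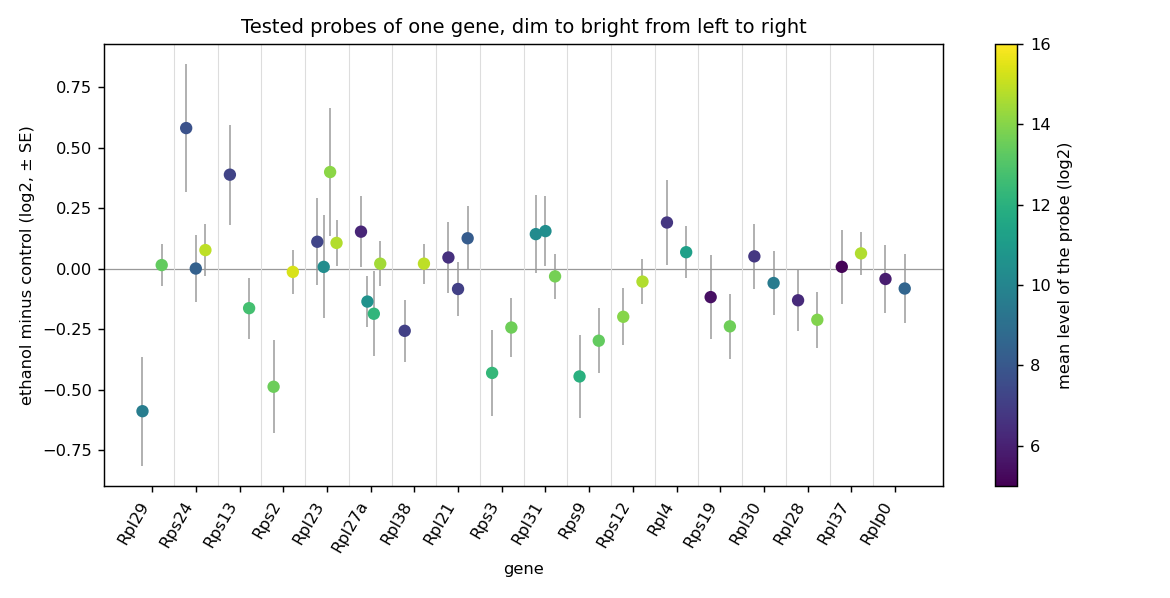
Ethanol minus control difference (log2, ± SE) of each tested probe for the 18 genes with more than 1, ordered by the gap between probes and, within a gene, from dim to bright (colour: mean level). The gaps of Rpl29, Rps24, Rps13 and Rps2 (0.60, 0.58, 0.55 and 0.48) are the widest, while both Rps9 probes and both Rps3 probes lie below 0.

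The steadiest members were bright, in the range where all tested probes also varied least (median SD 0.12 at levels of 14 and over). Rpl38, which is known for its part in translating Hox messages in the mouse embryo, ran from 14.82 to 14.96 in controls (median 14.88) and from 14.84 to 14.96 in ethanol samples (median 14.91), with an SD over 12 arrays of 0.05. Rps14 (SD 0.06) and Rpl3, a protein of the peptidyl transferase centre (SD 0.07), followed, with differences of -0.02 and 0.04. The most variable were the Rps24, Rpl23 and Rpl29 probes described above, with SDs of 0.59, 0.54 and 0.52. Rpl41, Rps29 and the brighter Rps2 probe lay near the top of the range, at 15.6, 15.3 and 15.3, where the brightest probe on each array was at 15.96. The dimmest tested probes, of Rpl37, Rps19 and Rpl14, lay at 5.10, 5.45 and 5.55, and the Rpl37 probe was above background on 7 of 12 arrays.

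Several members have a close relative with a probe of its own, and none of these probes passed the test. Rpl3l, which takes the place of Rpl3 in striated muscle, ran from 7.26 to 8.34 in controls (median 7.85) and from 7.54 to 8.26 in ethanol samples (median 7.88), a difference of 0.03 ± 0.19. Rpl39l, a relative of Rpl39 known from testis, was above background in 1 control and 0 ethanol samples, while Rpl39 differed by 0.02 ± 0.09. Rpl36a and Rpl36al, which encode near-identical proteins, differed by 0.09 ± 0.11 and -0.16 ± 0.13, and Rpl36al was lowest in ethanol 2 (11.91) and ethanol 3 (12.07) and differed by -0.01 without them, -0.09 without ethanol 2 alone and -0.10 without control 3. Rps27l, a relative of Rps27, differed by 0.00 ± 0.10, and the signs of Rps27l, Rpl3l and Rpl39 changed between settings. Probe sequences were not used here, and whether each probe separates such relatives was not tested. Rps3a1, which is outside the symbol rule, gave -0.01 ± 0.11.

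Among the 60 genes, the stalk protein gene Rplp1 (-0.22 ± 0.11) and the small subunit gene Rps15 (-0.30 ± 0.14) lay just outside the unadjusted threshold (both with an adjusted p of 0.416 in limma's fit over all probes). Rpl7a differed by -0.44 ± 0.22 (-0.28 without ethanol 2), and Rpl38 by -0.26 ± 0.13 with its dim probe. The remaining stalk genes gave -0.08 (Rplp2) and -0.08 and -0.04 (Rplp0).

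Members followed their own mean more than other probes did, as a description over 12 arrays that share background and normalisation. The correlation of a member with the mean of the other members had a median of 0.40 and was over 0.5 for 37 of 81 (45.7%), against a median of -0.03 and 7.51% for the other 23903 tested probes. It was highest for Rpl35 (0.93) and Rps12 (0.92) and lowest for Rpsa (-0.52) and the brighter Rpl29 probe (-0.48). The members had a median level of 12.3, against 7.4 over all tested probes, and no share was taken at matched levels. The named genes outside the set that followed the members' mean most closely were Tsen15 (r = 0.93), Smim6 (0.93), Smim11 (0.92), Ndufb3 (0.90) and Grpel1 (0.89). In each of these 5, control 3 was the highest array.

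Other parts of the translation machinery had medians near 0. These lists were described by counts only, with 1 probe a gene, and are to be read against the 6.81% of all probes on the lower side and 5.35% on the higher at an unadjusted p under 0.05. Of 24 tested initiation factors, 14 lay below 0 (median -0.02), with 2 on the lower side at an unadjusted p under 0.05 and 0 on the higher. Eif2b1, a subunit of the exchange factor that reloads eIF2, was 8.92 ± 0.13 in ethanol samples against 9.22 ± 0.11 in controls (SD, n = 6 each; adjusted p = 0.379 in limma), and its groups did not overlap. The eIF3 subunits Eif3b and Eif3a gave -0.50 and 0.40. Control 4, the array with the lowest quality weight, was the highest array for Eif3b (9.43) and the lowest for Eif3a (10.01). The other controls lay at 10.85 to 11.31 for Eif3a. Of 21 elongation factors and other genes with TOP messages, 11 lay below 0 (median -0.00), with Gas5 at 0.32, Cct2 at -0.29 and Eif3h at -0.33. The Gas5 probe was dim (level 5.06) and above background on 1 of 6 control and 6 of 6 ethanol arrays. It passed the filter through the ethanol samples, in which it was higher. Of 59 ribosome assembly factors, 26 lay below 0 (median 0.01) and 2 were on the higher side. These were the nucleolar genes Ddx21 (0.29, groups without overlap) and Ncl (0.31), while Noc2l gave -0.22. Control 4 was the lowest array for Ddx21 (9.94) and Ncl (9.10) and the highest for Noc2l (9.57). The other controls lay at 10.25 to 10.54 for Ddx21 and 9.75 to 9.96 for Ncl.

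Of 13 genes of RNA polymerase I transcription, which makes ribosomal RNA, 11 lay above 0 (median 0.07), with the activator gene Ubtf at 0.39 ± 0.14 (SE), Taf1a at 0.31 and Cd3eap at -0.26. Of 22 genes that control ribosomal protein synthesis, 14 lay above 0 (median 0.03), with Mdm2 at 0.36, the kinase gene Eif2ak2 at 0.35 and Tsc1 at 0.27. Among 8 relatives outside the symbol rule, 4 lay below 0 (median -0.01), with Rps19bp1 at -0.37, Rsl1d1 at 0.22 and Rpl7l1 at -0.21. No gene of these lists had an adjusted p under 0.05.

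Ribosomal protein messages are plentiful in lymphocytes, and in whole kidney a change in cell content and a change in RNA per cell cannot be told apart. All 8 tested lymphocyte and plasma cell markers of 17 on the array lay below 0 (median -0.46, 4 on the lower side at an unadjusted p under 0.05, where 6.81% of all probes were), among them Coro1a (-0.52), Cd3e (-0.74) and Cd52 (-0.41). Cd8a, Jchain and Gzmb were above background on 0 of 12 arrays. Of the markers on the array, 5 were above background on all 12 arrays. The mean deviation of this list ran from -0.07 to 0.92 in controls and from -0.47 to 0.22 in ethanol samples, lowest in ethanol 2. Control 6 (0.92) and control 5 (0.44) were highest. Controls 1, 2, 3 and 4 (-0.03, -0.03, -0.07 and 0.20) lay below ethanol 1 (0.22). Control 3, which was highest for the ribosomal genes, was lowest of the controls for these markers (-0.07). Their part in the ribosomal values was not tested. Of 20 macrophage and myeloid markers, 15 lay below 0 (median -0.11, 3 on the lower side at an unadjusted p under 0.05), with C1qc (-0.35), H2-Eb1 (-0.33) and C1qb (-0.29). The mean deviation of that list ran from -0.13 to 0.24 in controls and from -0.38 to 0.25 in ethanol samples.

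Markers of other tissue gave wide ranges on both sides. All 6 tested red cell genes lay below 0 (median -0.18), with Alas2 at -0.52, Hba-a1 at -0.20 and Hbb-bs at -0.13, and with a mean deviation from -0.26 to 0.44 in controls and from -0.63 to 0.26 in ethanol samples. The 9 tested fat genes (median 0.24; Lpl 0.24, Car3 -0.73, Lep -0.31) ran from -1.31 to 1.12 in controls and from -1.57 to 1.58 in ethanol samples. Of 8 adrenal genes only Cyp11a1 was tested (0.46). The 10 fibroblast and matrix genes had 6 below 0 and 4 above (median -0.07), with Vim (-0.47), Fn1 (-0.48) and Sparc (-0.24). At an unadjusted p under 0.05, 3 of the 10 were on the lower side, where 6.81% of all probes were. Among the 11 kidney markers 9 lay above 0 (median 0.07), with Nphs1 at -0.47, Slc12a1 at 0.31 and Aqp2 at -0.39.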

How the data were processed

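What the authors deposited is a linear intensity for each probe, made with GenomeStudio per the submitters' processing notes. Values below 0 show that some background was subtracted before deposit; version, method and scaling are not stated in the labels or headers. A second table was not used, because its 24 columns of values match no sample's label. On each array the background mean was the mode of the intensities (kernel bandwidth 2, searched under the 0.6 quantile), and its SD came from the values beneath that mode. Normal-exponential correction with an offset of 16, quantile normalisation and log2 followed in limma 3.58.1 under R 4.3.3. A probe was tested where its normal probability under the background was below 0.05 on at least 6 of 12 arrays. Ethanol minus control was fitted over all 23984 such probes (lmFit, eBayes) with Benjamini-Hochberg adjustment. The fit was tested on simulated data. The number of arrays limits the precision. Symbols came from the platform annotation (34885 probes with 1 symbol, 18 with several, 10378 with none), and 60 of 60 member symbols matched RefSeq. No set test was run. Named probes are the 6 lower and 6 higher with the smallest p, the 5 genes with the widest probe gap, the 3 highest and lowest in level and in SD, and members with close relatives; Rpl27, Rps15, Rplp1, Rpl7a and single extremes were named after their values were seen. Other lists are given by up to 3 genes with the smallest p, and a gene by its brightest tested probe. The members and lists were chosen with earlier results of these data known. Alternatives covered an exact permutation test of every tested probe, background, offset, scaling, filter, array weights, variance prior (statmod 1.5.0), replicate block, probe choice, each array left out and pairs of arrays left out.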

Additional observations from a re-analysis of the deposited data

Results flagged for a closer look

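Of 94 groups of 6 samples examined (44 named probes and the mean deviations, in controls and in ethanol samples), 8 had 1 sample far from the others by Dixon's ratio, the gap to the nearest sample over the group's range, measured against Dixon's critical value for 6 samples. Chance gives about 1 in 20 in groups that were not chosen by their values. These probes were chosen by theirs and share arrays, so that rate is no reference for the number found. The second brightest Rpl23 probe was far lower in control 6 (12.7, ratio 0.740, others 13.9 to 14.4) and far higher in ethanol 6 (15.05, ratio 0.647, others 13.99 to 14.37). The third Rpl23 probe was far lower in control 4 (9.29, ratio 0.759) and in ethanol 6 (9.88, ratio 0.836). The Rps23 probe was far higher in control 6 (6.42, ratio 0.691). Control 3 was far above the other controls in the mean deviation of all members (0.20, ratio 0.660) and of the large subunit (0.17, ratio 0.786). Ethanol 2 was far below the other ethanol samples in that of the small subunit (-0.26, ratio 0.699).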

How the results depend on the processing

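The median difference of the members (-0.04) stayed below 0 in all 26 alternatives (-0.08 to -0.01; -0.08 to -0.01 with 1 array left out). The number of probes past an adjusted p under 0.05 was 0 except with the deposited values as they stand, where it was 2, and 0 in each fit with 1 array left out. The count of lower members (8 at an unadjusted p under 0.05) was 14 with a robust variance prior with trend (2 choices changed together, 6.99% of all probes). With 1 probe a gene it was 4 of 56 (7.14%, against 6.81% of all probes). With all member probes it was 0 without ethanol 2 and ethanol 3 (2.39% of all), and 1 without control 3 and ethanol 2 (3.32%, a pair chosen after the data were seen). It ran from 3 to 13 with 1 array left out, where 3.86% to 9.53% of all probes were on the lower side. The count of higher members (1) was 0 without background correction, with median scaling, with the deposited values, with no filter, with array weights, with 1 probe a gene, without control 4 and ethanol 6 and without ethanol 2 and ethanol 3, and ran from 0 to 3 with 1 array left out. Genes whose probes differ in sign numbered 6 to 10 (7 as reported). The small subunit median (-0.12) ran from -0.16 to -0.05 and the large subunit median (-0.04) from -0.05 to 0.02. An exact permutation test of all 23984 probes called 0 after adjustment, as limma did; its smallest adjusted p was 0.422, and 0.426 among members. Of 1098 values of 44 named probes, 1018 kept their sign and their side of the threshold. The other 80 were sign changes of 17 probes near 0. With median scaling and with the deposited values, the brighter Rpl29 probe gave -0.00062 and -0.0053, the brighter Rpl38 probe -0.035 and -0.040, Rpl39 -0.017 and -0.022, the Rps24 probe at 0.00 -0.0014 and -0.0035, Rps26 -0.0089 and -0.014, and Rps27l -0.040 and -0.045. Rpl3l gave -0.00038 with median scaling, and Rpl14 gave 0.023 and Rpl3 -0.00034 with the deposited values. That Rps24 probe gave -0.0010 without background correction. With array weights the third Rpl23 probe gave -0.090, the dimmer and brighter Rplp0 probes 0.043 and 0.0067, and Rps27l -0.0046. Without control 4 and ethanol 6, Rpl14 gave 0.014, the third Rpl23 probe -0.11, the dimmer and brighter Rplp0 probes 0.062 and 0.039, the dim Rps19 probe 0.037 and Rps27l -0.017. Without ethanol 2 and ethanol 3, the third and dimmest Rpl23 probes gave -0.036 and -0.019, the brighter Rpl29 probe -0.022, the brighter Rps2 probe 0.044, the Rps24 probe -0.15 and Rps26 -0.023. Without control 3 and ethanol 2, the brighter Rpl29 probe gave -0.019, the dim Rpl37 probe -0.062, Rpl3l -0.033, Rps14 0.0049 and the Rps24 probe -0.045. With 1 array left out, the range was -0.12 to 0.0088 for Rpl14, -0.20 to 0.10 for the third Rpl23 probe, -0.0053 to 0.041 for Rpl29, -0.11 to 0.076 for Rpl37, -0.0048 to 0.054 for Rpl39, -0.094 to 0.12 for Rpl3l, -0.10 to 0.033 and -0.15 to 0.022 for the dimmer and brighter Rplp0 probes, -0.041 to 0.0026 for Rps14, -0.045 to 0.010 for Rps2, -0.066 to 0.076 for Rps24, -0.025 to 0.049 for Rps26 and -0.032 to 0.061 for Rps27l. The cause was not tested. With the replicate number as a block, 0 probes passed and 9 members were on the lower side (9.27% of all probes). Deviations of same-numbered samples correlated by 0.0010 to 0.46, and 2 of 12 samples correlated best with their own number. The labels do not say what samples with the same number share.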
